A study of Mus musculus with 5 samples.

Results

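The 40 genes described here carry dietary fat and sterol through the absorptive cells of the mouse small intestine, from uptake through re-esterification and droplet storage to lipoprotein export and sterol efflux. They were chosen by name, and all 40 were among the 19198 genes of the count table. The 2 Cre-positive mice carried Math1Cre*PR together with mAChR4 fl/fl (floxed alleles of Chrm4, the M4 muscarinic acetylcholine receptor gene). The 3 Cre-negative mice were mAChR4 fl/fl littermates that lacked Math1Cre*PR. Math1Cre*PR is a Cre recombinase that responds to the progesterone receptor ligand RU486 and is expressed from Math1 (gene symbol Atoh1), the transcription factor of the secretory lineage, so absorptive cells are not the cells it targets by design. All 5 mice were gavaged with RU486 at 10 mg/kg daily for 4 days. No Cre-positive mouse with unfloxed Chrm4 was in the series, so the activated Cre and the loss of Chrm4 cannot be told apart, and nothing was stated of age or sex. The design text names whole small intestine as the tissue, without saying how it was sampled. The series asks how deleting this receptor in Math1-expressing cells changes gene expression in the small intestine.

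Absorptive cells take up fatty acids and monoacylglycerol after lipases have digested dietary fat in the lumen. They rebuild triglyceride at the endoplasmic reticulum, and a transfer protein loads it onto apolipoprotein B to make chylomicrons, which leave the cell for the lymph. Cholesterol enters by its own transporter, is esterified and loaded onto the same particles, or is pumped back to the lumen. Fat absorption is mainly a task of the upper small intestine, whereas the ileum is known for the uptake of bile acids.

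The Cre-positive libraries held 5000613 and 6618204 estimated counts, and the Cre-negative libraries held between 4681119 and 5705921. Over the whole table, edgeR's quasi-likelihood test called 0 of 14352 tested genes at a Benjamini-Hochberg adjusted p under 0.05. The lowest adjusted p was 0.977, and 485 genes (3.38%) had an unadjusted p under 0.05. DESeq2's Wald test called 12 genes higher and 7 lower.

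The 40 genes took a similar share of the counts in both groups on average, and the share varied more among mice of a group than between the groups. They held 1.36% and 3.13% of all counts in Cre-positive 1 and 2, against 2.10%, 1.64% and 2.78% in Cre-negative 1, 2 and 3. The means were 2.24% ± 1.25 (SD, n = 2) in Cre-positive and 2.17% ± 0.575 (SD, n = 3) in Cre-negative mice. Levels below are in CPM, the counts of a gene per 1000000 counts of its library, scaled by TMM (edgeR's correction for library composition). Apob, which encodes the structural protein of chylomicrons, made up between 57.4% and 66.9% of these counts in each library. Cre-positive 1 had the lowest share of the 5 mice and Cre-positive 2 the highest.

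**Figure D1:**
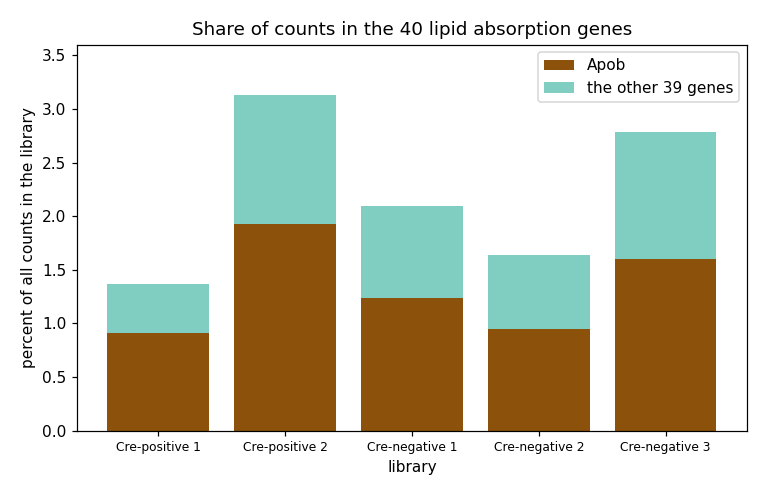
Bars give the percent of all estimated counts in each library that fell in the 40 lipid absorption genes, divided into Apob and the other 39. Cre-positive 1 has the lowest bar at 1.36% and Cre-positive 2 the highest at 3.13%, with the 3 Cre-negative mice between 1.64% and 2.78%.

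Most of the genes shared their lowest and highest libraries, across the groups, though fewer shared the full order. Of the 40, 28 were lowest in Cre-positive 1 (29% of all tested genes), and 27 had Cre-positive 1 and Cre-negative 2 as their 2 lowest libraries (13.9% of all tested genes). Being lowest in Cre-positive 1 was not particular to lipid genes, as 13 of 18 enterocyte genes without a lipid role were lowest there too. In 28, Cre-positive 2 and Cre-negative 3 were the 2 highest libraries (12.4% of all tested genes). Between the Cre-positive mice, the median log2 difference of mouse 2 over mouse 1 was 1.19 over the 40 genes and -0.01 over all tested genes. Between Cre-negative mice 3 and 2 it was 0.69 over the 40 genes and 0.00 over all tested genes. The difference between the Cre-positive mice was larger than the fold change between the groups in 36 of the 40 genes, or 90.0%, against 65.7% of all tested genes. In these bulk samples, fewer cells of a type and less RNA per cell cannot be told apart.

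**Figure D2:**
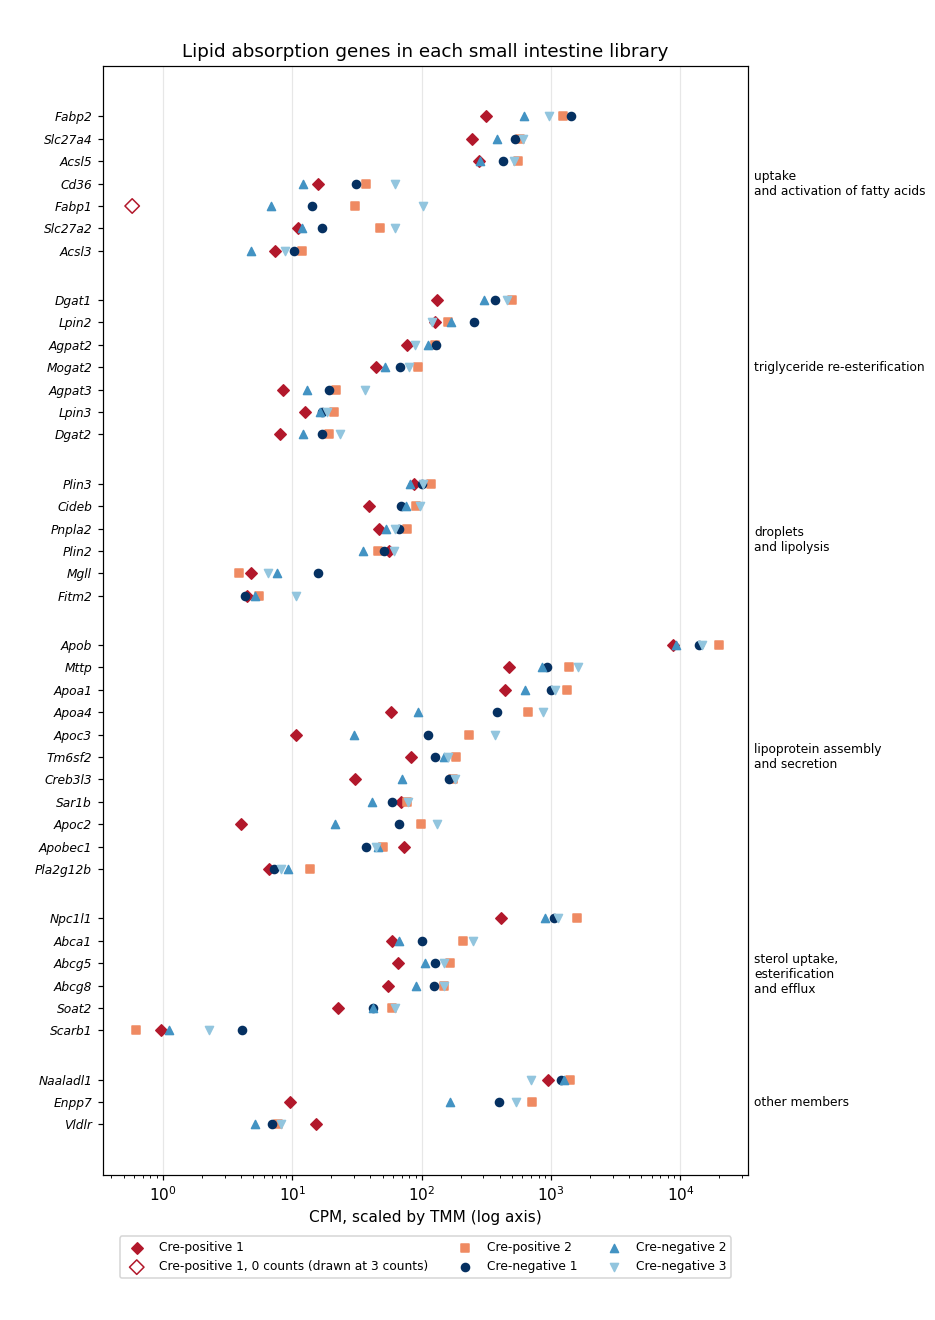
Each row is a gene and each point a library, in CPM on a log axis, with genes grouped by role and sorted by mean. Cre-positive 1 (filled diamonds) is the lowest point in 28 of 40 rows, and Fabp1 had 0 counts in that library, drawn open at the level of 3 counts.

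Among the 7 genes of fatty acid uptake and activation none passed the test, 2 had a positive and 5 a negative log2 fold change (Cre-positive over Cre-negative, here and below), and the median was -0.29 (all tested genes: -0.04). Fabp2, the intestinal fatty acid binding protein, had 312 and 1228 CPM in mice 1 and 2 of the Cre-positive group and 1438, 613 and 963 CPM in mice 1, 2 and 3 of the Cre-negative group. Values follow this order of mice throughout. The Cre-positive mice thus held the lowest value and the value next to the highest. Slc27a4, a fatty acid transport protein with acyl-CoA synthetase activity, had 244 and 577 CPM in the Cre-positive and 522, 385 and 603 CPM in the Cre-negative mice. Acsl5, a long-chain acyl-CoA synthetase, had 279.6 and 553 CPM in the Cre-positive and 425, 284 and 514 CPM in the Cre-negative mice. The groups overlapped for all 3 genes, and their log2 fold changes were -0.38 ± 0.60, -0.29 ± 0.40 and 0.03 ± 0.38 (SE; edgeR adjusted p = 0.977, 0.977 and 0.993). Cd36, a fatty acid translocase, ranged from 12.2 to 61.8 CPM over the 5 libraries, Slc27a2, a very long-chain acyl-CoA synthetase, from 10.98 to 61.6 CPM, and Acsl3, which activates fatty acids at droplets, from 4.80 to 11.9 CPM.

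Fabp1, the fatty acid binding protein shared by liver and upper intestine, was not detected in Cre-positive 1. The Cre-positive mice had 0 and 196 counts of it, and the Cre-negative mice had 60, 37 and 628. In CPM these were 0 and 30.3 in the Cre-positive mice, against 14.3, 6.83 and 102 in the Cre-negative mice. A count of 0 allows up to 3 counts, or 0.578 CPM, at the depth of Cre-positive 1. That limit was 52.5-fold below the measured value of Cre-positive 2 and 11.8-fold below that of Cre-negative 2, the next lowest. The counting error of Cre-positive 2 and Cre-negative 2 is not part of these folds. The limit of 3 counts and all intervals given here cover counting error only. The Cre-negative mice differed 14.9-fold among themselves, and the log2 fold change between the groups was -1.42 ± 1.71 (SE; edgeR adjusted p = 0.977). Fabp1 lies on chromosome 6 from 71199827 to 71205023 on the plus strand (GRCm38) and has 4 exon blocks, with no overlapping gene. Its RefSeq promoter window (GRCm38.p6, chr6:71199629-71199928, plus strand, 250 bases before to 50 after the start site) is shown because no other member had a library without a count. Capitals mark both matches to the CDX factor motif TTTATGG, both matches to the nuclear receptor core motif AGGTCA and the TATAAA box, read on either strand.
Fabp1: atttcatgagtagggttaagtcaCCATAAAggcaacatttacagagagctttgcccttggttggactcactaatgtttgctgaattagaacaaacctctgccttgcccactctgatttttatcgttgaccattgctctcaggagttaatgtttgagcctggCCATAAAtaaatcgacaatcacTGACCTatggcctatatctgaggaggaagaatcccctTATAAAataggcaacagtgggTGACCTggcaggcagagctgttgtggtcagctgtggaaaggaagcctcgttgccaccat
The CDX motif was in 2.75% of all 32851 promoter windows of the table, AGGTCA in 16.3% and TATAAA in 13.6%. A match describes the letters of the window and shows no binding.

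Among the 7 genes that rebuild triglyceride none passed the test, 1 had a positive and 6 a negative log2 fold change, and the median was -0.26. Dgat1, which adds the last acyl chain, had 132 and 496 CPM in the Cre-positive and 371, 303 and 453 CPM in the Cre-negative mice. Cre-positive 1 stood below every Cre-negative mouse and Cre-positive 2 above every one. Lpin2, a phosphatidate phosphatase, had 126 and 160.3 CPM in the Cre-positive and 252, 168 and 121 CPM in the Cre-negative mice. Agpat2, which makes phosphatidate, had 77.6 and 126 CPM in the Cre-positive and 128, 112 and 89.2 CPM in the Cre-negative mice. Lpin2 and Agpat2 were highest in Cre-negative 1, unlike most of the 40 genes. Agpat3, of the same acyltransferase family, had 8.48 and 21.8 CPM in the Cre-positive and 19.1, 12.9 and 36.5 CPM in the Cre-negative mice. The log2 fold changes were -0.26 ± 0.52 for Dgat1, -0.33 ± 0.33 for Lpin2, -0.11 ± 0.28 for Agpat2 and -0.59 ± 0.55 for Agpat3 (SE; edgeR adjusted p = 0.977, 0.977, 0.978 and 0.977). Mogat2, the acyltransferase that starts from monoacylglycerol, ranged from 44.7 to 92.9 CPM over the 5 libraries. Dgat2 and Lpin3, from the families of Dgat1 and Lpin2, ranged from 8.09 to 23.5 CPM and from 12.5 to 21.0 CPM. All 3 were lowest in Cre-positive 1.

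Droplet and lipolysis genes had 3 positive and 3 negative log2 fold changes among 6, with a median of -0.14, and none passed the test. Mgll, the lipase that splits monoacylglycerol, was the member with the smallest unadjusted p of all 40 and was lower in both Cre-positive mice than in each Cre-negative mouse. It had 4.82 and 3.87 CPM in the Cre-positive mice, from 25 counts each, against 15.7, 7.56 and 6.49 CPM in the Cre-negative mice. The log2 fold change of Mgll was -1.18 ± 0.48 (SE; edgeR unadjusted p = 0.0424, adjusted p = 0.977). Cre-negative 1 was the highest mouse, and without it the log2 fold change was -0.67. Plin3, a droplet coat protein, had 87.9 and 118 CPM in the Cre-positive and 100.2, 81.2 and 102 CPM in the Cre-negative mice. Cideb, a droplet protein that also helps lipidate lipoproteins, had 39.5 and 89.6 CPM in the Cre-positive and 69.7, 75.1 and 96.4 CPM in the Cre-negative mice. Pnpla2, the adipose triglyceride lipase, had 47.0 and 77.5 CPM in the Cre-positive and 66.3, 52.8 and 62.3 CPM in the Cre-negative mice. Fitm2, which acts in droplet budding, had 4.43 and 5.57 CPM in the Cre-positive and 4.29, 5.17 and 10.7 CPM in the Cre-negative mice. These 4 overlapped between the groups, with log2 fold changes of 0.13 ± 0.23 for Plin3, -0.31 ± 0.36 for Cideb, 0.04 ± 0.27 for Pnpla2 and -0.44 ± 0.48 for Fitm2 (SE; edgeR adjusted p = 0.977, 0.977, 0.989 and 0.977). Plin2, a droplet coat protein that follows the amount of stored fat, ranged from 35.1 to 60.7 CPM over the 5 libraries.

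Among the 11 genes of lipoprotein assembly and secretion none passed the test. The median log2 fold change was -0.12, with 4 positive and 7 negative. Apob had 8784 and 19764 CPM in the Cre-positive and 13863, 9274 and 14784 CPM in the Cre-negative mice. Mttp, the transfer protein that loads lipid onto it, had 475 and 1372 CPM in the Cre-positive and 934, 847 and 1615 CPM in the Cre-negative mice. Apoa1, the main protein of high-density lipoprotein, had 441 and 1318 CPM in the Cre-positive and 995, 633 and 1077 CPM in the Cre-negative mice. Cre-positive 1 was the lowest mouse for all 3, and the groups overlapped. Their log2 fold changes were 0.18 ± 0.43, -0.29 ± 0.50 and -0.04 ± 0.48 (SE; edgeR adjusted p = 0.977, 0.977 and 0.994). Per kilobase of exon, Apob averaged 954 and Fabp2 944 CPM per kb over the 5 libraries, within ranges of 630.4 to 1418 and 324 to 1491, so the order of these levels lies within their spread. Apoa1 followed at 722 CPM per kb.

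Apobec1, the enzyme that edits Apob messenger RNA so that the intestine makes the short form of the protein, was higher in both Cre-positive mice than in each Cre-negative mouse. It had 73.6 and 50.5 CPM in the Cre-positive and 37.2, 46.3 and 44.6 CPM in the Cre-negative mice, and its log2 fold change was 0.54 ± 0.25 (SE; edgeR unadjusted p = 0.0643, adjusted p = 0.977). It lies on chromosome 6 from 122577792 to 122602444 on the minus strand (GRCm38). Sar1b, the coat GTPase that chylomicrons need to leave the endoplasmic reticulum, had 68.8 and 77.2 CPM in the Cre-positive and 59.4, 41.1 and 78.0 CPM in the Cre-negative mice. Pla2g12b, a phospholipase-like protein of lipoprotein assembly, had 6.55 and 13.8 CPM in the Cre-positive and 7.16, 9.23 and 8.11 CPM in the Cre-negative mice. Both overlapped between the groups, with log2 fold changes of 0.29 ± 0.29 and 0.32 ± 0.38 (SE; edgeR adjusted p = 0.977 each). Tm6sf2, an endoplasmic reticulum protein needed to lipidate these particles, ranged from 82.9 to 184 CPM over the 5 libraries. Creb3l3, a membrane-bound transcription factor known to activate Apoa4 and Apoc2, had 30.6 and 175 CPM in the Cre-positive and 162, 70.3 and 180.1 CPM in the Cre-negative mice.

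Apoa4, Apoc3 and Apoc2 had the widest spread over the libraries in this role. Apoa4, which is made in the intestine with fat absorption, had 58.2 and 668 CPM in the Cre-positive and 383, 94.3 and 865 CPM in the Cre-negative mice. Apoc3, an inhibitor of lipoprotein lipase, had 10.6 and 230.3 CPM in the Cre-positive and 112, 29.9 and 368 CPM in the Cre-negative mice. Apoc2, the activator of that lipase, had 4.05 and 99.1 CPM in the Cre-positive and 67.0, 21.2 and 131 CPM in the Cre-negative mice. The exact 95% Poisson intervals of the Cre-positive values were 2.50 to 6.19 and 91.5 to 107 CPM. For all 3 genes the order was Cre-positive 1, Cre-negative 2, Cre-negative 1, Cre-positive 2 and Cre-negative 3, low to high. The difference between the Cre-positive mice was 11.48-fold for Apoa4, 21.7-fold for Apoc3 and 24.5-fold for Apoc2, and that between the highest and lowest Cre-negative mouse was 9.17-fold, 12.3-fold and 6.18-fold. The log2 fold changes between the groups were -0.30 ± 1.18, -0.50 ± 1.38 and -0.50 ± 1.23 (SE; edgeR adjusted p = 0.982, 0.981 and 0.977). Apoc2 overlaps the model Gm44805 on its own strand, and its deposited counts, like those of Apoa4, were not whole in any of the 5 libraries, so how its reads were assigned is uncertain. Apoa4 overlaps 2 gene models on the opposite strand.

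Apoa1, Apoc3 and Apoa4 are neighbours on chromosome 9. Apoa1 and Apoc3 point toward each other with 2466 bases between them, and Apoc3 and Apoa4 point away from each other with 5059 bases between them, within 46228580 to 46243459 (GRCm38). Apoa1 differed 2.99-fold between the Cre-positive mice while Apoc3 and Apoa4 beside it differed by over 10-fold. Apoa5, the next gene of the cluster, was not analysed here. The promoter windows of Apoc2 (GRCm38.p6, chr7:19677892-19678191, minus strand) and Apoa4 (chr9:46240594-46240893, plus strand) are shown because these genes spread widely over the mice. Capitals mark matches to AGGTCA in Apoc2, and none of the motifs searched was in the Apoa4 window.
Apoc2: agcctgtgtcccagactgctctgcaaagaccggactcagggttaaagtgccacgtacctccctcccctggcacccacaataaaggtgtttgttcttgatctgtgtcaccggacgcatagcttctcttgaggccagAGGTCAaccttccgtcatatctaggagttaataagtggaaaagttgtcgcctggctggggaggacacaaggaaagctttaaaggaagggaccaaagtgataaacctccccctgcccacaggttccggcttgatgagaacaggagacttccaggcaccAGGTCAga
Apoa4: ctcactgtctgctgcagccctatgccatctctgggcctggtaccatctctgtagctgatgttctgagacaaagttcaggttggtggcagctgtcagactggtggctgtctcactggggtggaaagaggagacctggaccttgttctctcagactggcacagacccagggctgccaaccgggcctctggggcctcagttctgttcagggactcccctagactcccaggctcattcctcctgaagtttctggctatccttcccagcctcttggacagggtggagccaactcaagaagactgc
Neither window held the HNF4 motif CAAAGTCCA, found in 0.475% of all windows, or the CREB3 family motif TGACGTGG, found in 0.676%. Windows were at hand for 32 of the 40 genes, 39 windows in all, and none of these held either motif.

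Sterol handling genes all had a negative log2 fold change, 6 of 6, with a median of -0.19, and none passed the test. Npc1l1, the cholesterol uptake protein of the brush border, had 409 and 1597 CPM in the Cre-positive and 1059, 892 and 1124 CPM in the Cre-negative mice. Abca1, which loads cholesterol onto high-density lipoprotein, had 58.6 and 207 CPM in the Cre-positive and 100.2, 66.6 and 249.7 CPM in the Cre-negative mice. Their log2 fold changes of -0.03 ± 0.52 and -0.06 ± 0.70 were small beside their spread (SE; edgeR adjusted p = 0.995 and 0.993). Soat2, which esterifies cholesterol, ranged from 22.5 to 62.0 CPM over the 5 libraries. Scarb1, the receptor for high-density lipoprotein, had 0.963 and 0.619 CPM in the Cre-positive mice, from 5 and 4 counts, against 4.06, 1.11 and 2.27 CPM in the Cre-negative mice, from 17, 6 and 14 counts. The groups did not overlap, but the 95% Poisson interval of Cre-positive 1, from 0.313 to 2.25 CPM, took in the value of Cre-negative 2. Its log2 fold change was -1.61 ± 0.75 (SE; edgeR unadjusted p = 0.0673, adjusted p = 0.977).

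Abcg5 and Abcg8 encode the subunits of the pump that returns sterols to the lumen, and their values followed each other over the libraries. Abcg5 had 65.7 and 166 CPM in the Cre-positive and 127, 106 and 148 CPM in the Cre-negative mice. Abcg8 had 54.5 and 149 CPM in the Cre-positive and 124, 90.8 and 149 CPM in the Cre-negative mice. Both were lowest in Cre-positive 1. Abcg5 was highest in Cre-positive 2, and Abcg8 was level between that mouse and Cre-negative 3, and their log2 fold changes were -0.13 ± 0.39 and -0.25 ± 0.43 (SE; edgeR adjusted p = 0.981 and 0.977). They lie head to head on chromosome 17, Abcg5 on the minus strand from 84658234 to 84683011 and Abcg8 on the plus strand from 84676302 to 84700333 (GRCm38). Their annotated exons overlap on opposite strands, and the strand setting of the counting is not given, so some reads of the pair cannot be told apart. Their start sites were 110 bases apart, except for an upstream Abcg8 start inside Abcg5. The windows below therefore share 209 bases, read from opposite strands (GRCm38.p6, chr17:84682962-84683261, minus strand, and chr17:84682871-84683170, plus strand). Capitals mark the GATA motif AGATAA, found 3 times in each window, and TATAAA, once in each, on either strand.
Abcg5: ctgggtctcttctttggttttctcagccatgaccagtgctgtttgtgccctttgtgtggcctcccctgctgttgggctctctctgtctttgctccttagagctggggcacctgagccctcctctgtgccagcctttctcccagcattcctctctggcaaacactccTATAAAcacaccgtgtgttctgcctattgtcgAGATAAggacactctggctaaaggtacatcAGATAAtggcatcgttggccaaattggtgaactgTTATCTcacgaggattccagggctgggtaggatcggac
Abcg8: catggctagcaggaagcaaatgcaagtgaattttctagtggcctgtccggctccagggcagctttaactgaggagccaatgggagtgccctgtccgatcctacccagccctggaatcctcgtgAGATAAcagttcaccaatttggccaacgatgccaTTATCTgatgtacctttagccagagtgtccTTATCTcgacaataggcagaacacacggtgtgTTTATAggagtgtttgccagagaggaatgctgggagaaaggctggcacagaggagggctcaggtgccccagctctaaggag
AGATAA was in 11.2% of all promoter windows and in those of 4 of the 32 genes with a window, Abcg5, Abcg8, Creb3l3 and Enpp7. The liver X receptor direct repeat was in none of the 39 windows.

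Enpp7, the brush border sphingomyelinase, had the widest range of the members counted in every library. It had 9.63 and 712 CPM in the Cre-positive and 398, 166 and 534 CPM in the Cre-negative mice. The exact 95% Poisson intervals of the Cre-positive values were 7.15 to 12.7 and 691 to 732 CPM. The Cre-positive mice differed 73.9-fold and held both ends of the range. The log2 fold change of -0.02 ± 1.38 was therefore close to 0 with a large error (SE; edgeR adjusted p = 0.998), and its sign turned under RLE scaling, with a value of 0.0030. Asah2, the brush border ceramidase that acts on the product of Enpp7 and is not a member, had 95.95 and 1424 CPM in the Cre-positive and 1204, 549 and 1314 CPM in the Cre-negative mice. Enpp7 lies on chromosome 11 from 118988188 to 118993221 on the plus strand (GRCm38). Its window (GRCm38.p6, chr11:118987931-118988230, plus strand) is shown with its AGATAA match in capitals.
Enpp7: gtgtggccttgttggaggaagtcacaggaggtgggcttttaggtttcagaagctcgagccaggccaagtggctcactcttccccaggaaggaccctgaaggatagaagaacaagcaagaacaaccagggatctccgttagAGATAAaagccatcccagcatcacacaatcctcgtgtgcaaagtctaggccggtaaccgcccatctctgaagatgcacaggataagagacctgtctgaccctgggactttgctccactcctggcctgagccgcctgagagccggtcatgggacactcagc
Naaladl1, a brush border peptidase, went another way. It had 945 and 1410.0 CPM in the Cre-positive and 1190.3, 1253 and 701 CPM in the Cre-negative mice, lowest in Cre-negative 3, where many of the 40 genes were highest. Vldlr, a receptor for very low-density lipoprotein, had 15.2 and 7.74 CPM in the Cre-positive and 6.92, 5.17 and 8.11 CPM in the Cre-negative mice, highest in Cre-positive 1. The log2 fold changes were 0.17 ± 0.34 for Naaladl1 and 0.76 ± 0.39 for Vldlr (SE; edgeR adjusted p = 0.977 each).

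Some markers of position along the gut moved with these values, and others did not. Gata4, a transcription factor of the duodenum and jejunum that is scarce in the distal ileum, had 0.385 and 39.8 CPM in the Cre-positive and 24.6, 19.7 and 47.2 CPM in the Cre-negative mice. Slc10a2, the ileal bile acid transporter, had 806 and 45.7 CPM in the Cre-positive and 217, 375 and 6.49 CPM in the Cre-negative mice. Gata4 and Slc10a2 ordered the 5 libraries in exactly opposite ways. Of the 40 genes, 12 had the order of Gata4 in all 5 libraries (2.33% of all tested genes): Slc27a2, Slc27a4, Fabp1, Dgat2, Agpat3, Mttp, Apoa4, Apoc2, Apoc3, Creb3l3, Soat2 and Abca1. Lct, the lactase gene of the upper intestine, had 3.47 and 629 CPM in the Cre-positive and 258, 15.7 and 877 CPM in the Cre-negative mice. Fabp6, the ileal bile acid binding protein, had 47.4 and 6.35 CPM in the Cre-positive and 47.5, 61.1 and 0.649 CPM in the Cre-negative mice. Slc40a1, the iron exporter of the proximal list, went the other way, with 233 and 25.1 CPM in the Cre-positive and 19.3, 96.3 and 8.60 CPM in the Cre-negative mice. Cubn, the receptor for vitamin B12 with intrinsic factor on the ileal list, had 879 and 1583 CPM in the Cre-positive and 2012, 552 and 657 CPM in the Cre-negative mice, and did not follow Slc10a2. Both were chosen after their values were seen. Of the proximal genes 7 were lowest in Cre-positive 1, and of the ileal genes 0 were. Over the whole proximal list, 9 of 10 genes were in the table and their summed level was 429 and 1086 CPM in the Cre-positive and 653, 423 and 1581 CPM in the Cre-negative mice. All 9 genes of the ileal list were in the table, and they summed to 3428 and 3320.1 CPM in the Cre-positive and 3601, 2435 and 1746 CPM in the Cre-negative mice, which is not the reverse of the order of the 40 genes. With the difference of Gata4 and Slc10a2 as a covariate, a choice made after seeing the data, 0 of the 40 genes were called and the median log2 fold change was 0.10. That fit is no test of gut position, because 0 of the 40 genes were called without the covariate as well. The part of gut position in the spread was not tested.

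**Figure D3:**
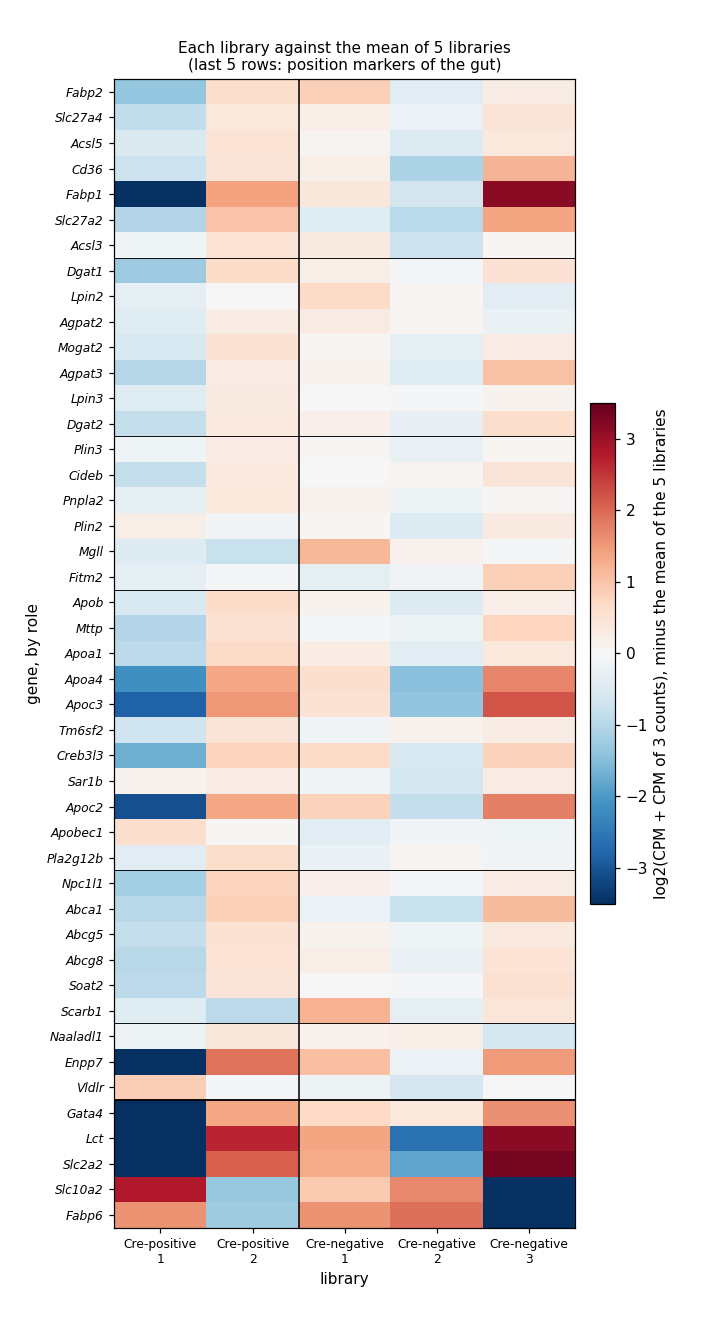
Colours give log2 (CPM plus the CPM of 3 counts) of each gene in each library minus its mean over the 5 libraries, with colours saturating at 3.5 on either side. The upper 40 rows are the lipid absorption genes by role and the last 5 rows are Gata4, Lct and Slc2a2, higher in the upper gut, and the ileal genes Slc10a2 and Fabp6. Cre-positive 1 and Cre-negative 2 are blue in most of the 40 rows and red for both ileal genes. Cre-negative 1 is also on the red side for both ileal genes. The last 5 rows were picked, and other position markers that are not drawn, such as Slc40a1 and Cubn, did not share this contrast.

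Markers of cell types differed between mice as well. The 18 enterocyte genes without a lipid role summed to 11596.5 and 21859 CPM in the Cre-positive and 16001, 13198 and 20732 CPM in the Cre-negative mice, the same order of libraries as the summed level of the 40 genes. The 10 genes of epithelium of all kinds summed to 4254 and 4823 CPM in the Cre-positive and 3267, 3759 and 3809 CPM in the Cre-negative mice. All 10 of these had positive log2 fold changes, and none passed the test. The 8 goblet cell genes, markers of the secretory lineage, summed to 5058 and 2271 CPM in the Cre-positive and 571, 989.9 and 1358 CPM in the Cre-negative mice. Of these, 4 were called by DESeq2, all higher, and 0 by edgeR. DESeq2 called 0.0836% of the genes it tested higher and 0.0488% lower, and edgeR called 0%. Of the other cell type lists, DESeq2 also called 2 lymphocyte and plasma cell genes and 1 fibroblast gene. The 13 lymphocyte and plasma cell genes summed to 786 and 68.6 CPM in the Cre-positive and 45.3, 48.9 and 113 CPM in the Cre-negative mice, and Cre-positive 1 thus had the highest lymphocyte and the lowest enterocyte sum. The 9 smooth muscle genes summed to 1260.5 and 1531 CPM in the Cre-positive and 3855, 1944 and 1504 CPM in the Cre-negative mice, highest in Cre-negative 1. Of the 40 genes, 5 were highest in that library (26.2% of all tested genes), namely Mgll, Scarb1, Lpin2, Agpat2 and Fabp2. Of 10 adipocyte genes, 8 were in the table and summed to 41.0 and 54.5 CPM in the Cre-positive and 104, 34.1 and 91.3 CPM in the Cre-negative mice. Adipoq and Plin1, picked from this list, stood at or under 1.35 CPM in each library, and most of the sum came from the other genes of the list. These lists are not separate from those of gut position. Lct is on the enterocyte and the proximal list, and Tff3 on the goblet cell and the ileal list. Slc2a2, drawn with the position markers, is on the enterocyte list. The part of these cell types in the values of the 40 genes was not tested.

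No member passed the test between the groups. Of the 40, 0 were called higher and 0 lower (0% of tested genes in each direction), and DESeq2 called 0. An unadjusted p under 0.05 was found for 0 on the higher side (1.6% of tested genes) and for 1 on the lower side, Mgll (1.78% of tested genes). DESeq2 called 0.0836% of the genes it tested higher and 0.0488% lower. The groups did not overlap for 1 gene on the higher side, Apobec1 (7.89% of tested genes), and for 2 on the lower side, Mgll and Scarb1 (10.2% of tested genes). Positive log2 fold changes were found for 12 of the 40, or 30%, against 45.5% of tested genes, and the median was -0.12 over the 40 and -0.04 over all tested genes. Of the 30 members followed through every alternative, 9 were positive, and 2 were positive with scaling on epithelial genes, which moved the median of all tested genes by -0.33. With that scaling the groups were apart for 0 of the 40 genes on the higher side (1.03% of tested genes) and for 6 on the lower side (32.4%).

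These fold changes turned on which Cre-positive mouse was used. Without Cre-positive 1 the median over the 40 genes was 0.37 and 33 were positive, and without Cre-positive 2 it was -0.99 with 4 of the remaining 39 positive. Fabp1 has no finite estimate without Cre-positive 2, since 0 counts are left in its group. Enpp7 had a log2 fold change of 0.995 without Cre-positive 1 and -5.20 without Cre-positive 2. Apoc2 had 0.47 and -4.13, Apoc3 0.47 and -3.97, and Apoa4 0.61 and -2.90. Mgll had -1.30 and -0.98, and Apobec1 had 0.27 and 0.82. The groups did not overlap for Mgll and Apobec1, so leaving out 1 Cre-positive mouse could hardly have turned their sign. Each of these fits has 1 Cre-positive mouse, so all of the spread comes from the Cre-negative mice, and the lone mouse is assumed to vary as they do. In neither of these edgeR fits was a member called, and the lowest adjusted p of a member was 0.106, for Enpp7 without Cre-positive 2. In the fit without Cre-positive 2, 0.374% of tested genes were called higher and 0% lower. Cre-positive 2 alone stood above all Cre-negative mice in 19 of the 40 genes (21.8% of tested genes) and below them in 2 (21.4%). Cre-positive 1 alone stood above them in 2 (31.3%) and below them in 30 (29.2%).

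**Figure D4:**
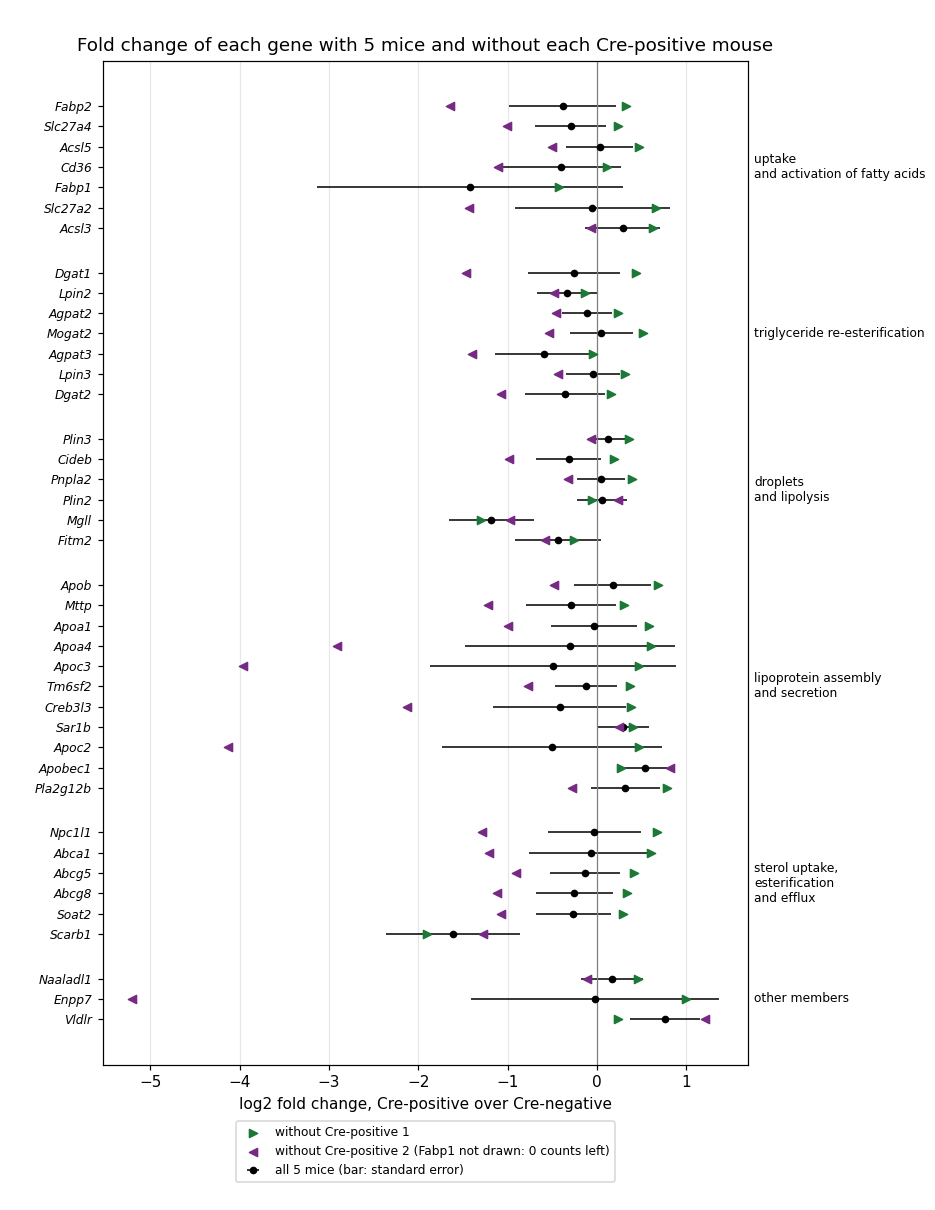
Black points give the log2 fold change (Cre-positive over Cre-negative) for each gene with its standard error, and triangles give it with 1 Cre-positive mouse left out. Without Cre-positive 1 the median is 0.37 and without Cre-positive 2 it is -0.99, and for most genes the triangles fall on opposite sides of 0.

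Of 142 further entries in lists of uptake, synthesis, droplet, export, sterol, lipase, regulator and sensor genes, 117 were in the table and 100 were tested. Of these 100, 0 were called higher and 0 lower (0% of all tested genes in each direction). The groups were apart in 5 on the higher side (7.89% of all tested genes) and in 6 on the lower side (10.2%). Log2 fold changes were positive for 38 (45.5% of all tested genes) and negative for 62, and the median was -0.11 (all tested genes: -0.04). The luminal lipase list had 4 of 9 genes in the table, all with negative fold changes. Pnliprp2, a pancreatic-type lipase, had 12.9 and 15.2 CPM in the Cre-positive and 27.4, 43.0 and 16.5 CPM in the Cre-negative mice, lower in both Cre-positive mice. Clps, the colipase that pancreatic lipase needs, had 2.50 and 2.79 CPM in the Cre-positive and 4.53, 6.46 and 4.70 CPM in the Cre-negative mice. Their groups did not overlap, with log2 fold changes of -1.04 ± 0.42 and -0.98 ± 0.40 (SE; edgeR unadjusted p = 0.0406 and 0.0434, adjusted p = 0.977 each). Lpin1, the relative of Lpin2, had 8.48 and 6.97 CPM in the Cre-positive and 10.7, 17.0 and 11.2 CPM in the Cre-negative mice. Sec23b, a coat subunit of the vesicles that carry lipoproteins, had 82.5 and 55.1 CPM in the Cre-positive and 37.9, 47.2 and 54.8 CPM in the Cre-negative mice. Their log2 fold changes were -0.75 ± 0.33 and 0.56 ± 0.27 (SE; edgeR adjusted p = 0.977 each).

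The transcription factors of the pathway had 9 positive and 12 negative fold changes among 21 tested, with a median of -0.08. Hnf4a, a regulator of enterocyte lipid genes, had 485 and 576 CPM in the Cre-positive and 399, 612 and 470.1 CPM in the Cre-negative mice, and did not share the order of the 40 genes. Nr1h4, the bile acid receptor, had 98.8 and 39.2 CPM in the Cre-positive and 24.1, 63.5 and 20.4 CPM in the Cre-negative mice, highest in the same 2 libraries in which most of the 40 genes were lowest. Its log2 fold change was 0.94 ± 0.58 (SE; edgeR adjusted p = 0.977). Nr1h2, a liver X receptor, had 12.5 and 20.9 CPM in the Cre-positive and 25.8, 23.8 and 21.6 CPM in the Cre-negative mice, with a log2 fold change of -0.50 ± 0.30 (SE; edgeR adjusted p = 0.977). Among the export genes, P4hb, the partner subunit of the transfer protein Mttp, had 377 and 699 CPM in the Cre-positive and 498, 454 and 777 CPM in the Cre-negative mice, again lowest in Cre-positive 1. Of the lipid sensing list only Sct, the secretin gene, passed the filter on low counts, and it had 5.97 and 2.79 CPM in the Cre-positive and 1.43, 1.11 and 0.973 CPM in the Cre-negative mice. It was higher in both Cre-positive mice and had the smallest unadjusted p of the 100 further genes, with a log2 fold change of 1.89 ± 0.54 (SE; edgeR unadjusted p = 0.00949, adjusted p = 0.977).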

How the data were processed

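Total RNA of 5 small intestines was depleted of rRNA and sequenced, as the labels' protocols state. The authors deposited 1 table of estimated counts per gene for 19198 symbols. The submitters' processing notes name Partek and mm10, with no word on the aligner, gene models, strandedness or counting. In each library, 19.6% to 21.7% of values lay farther than 0.005 from a whole number, and 13 of the 40 genes had such a value somewhere. These estimated counts were then rounded.

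The test was edgeR 4.0.16 under R 4.3.3 with TMM scaling, filterByExpr (minimum count 10), a robust quasi-likelihood fit with genotype as its only term and Benjamini-Hochberg adjustment over all 14352 genes tested, at 0.05. All 40 members passed the filter. A standard error is the size of the fold change over the square root of the F statistic. With 3 residual degrees of freedom, p-values rest on the spread of a gene between these mice, moderated by the spread of the other genes. Each mouse has its own number in the labels. Mice are numbered within a group by record order only. On simulated data for this comparison, run on 13872 genes, 0 of 99 genes changed 2-fold and 50 of 100 changed 4-fold were called, beside 7 unchanged genes. The simulation drew each gene on its own, without the differences between libraries that many genes share in the data. It therefore does not give the share of true changes that the test would call in these mice. Alternatives used DESeq2 1.42.0 and limma 3.58.1 among others.

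The Gata4 and Slc10a2 covariate is the difference of their log2(CPM + 1) values. The members and lists were chosen with earlier results of these data known. Values in each library were given for the first 3 members of each role by mean CPM and the 10 with the smallest unadjusted p. In each further list the same was done for the 2 smallest p and the highest mean, of which not all are printed. Fabp1, Apoc2, Apoc3, Apoa4, Creb3l3, Abcg8 and the printed promoters were also chosen for their spread over mice or as neighbours. GENCODE M21 (GRCm38, the assembly named mm10 elsewhere) gave coordinates and exon lengths, and RefSeq on GRCm38.p6 gave promoters. Exons of 2 members overlapped a gene on the same strand and those of 12 a gene on the opposite strand. Both strands were searched for the nuclear receptor core motif AGGTCA, its direct repeats 1 and 4, the GATA motif AGATAA, the CDX motif TTTATGG, the TATA box TATAAA, the HNF4 motif CAAAGTCCA, the CREB3 motif TGACGTGG and the sterol regulatory element TCACCCCAC. Only the direct repeats overlap another motif, the core.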

Additional observations from a re-analysis of the deposited data

How the results depend on the processing

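No member and no further pathway gene was called under any of the 14 alternatives beside leaving out a mouse, or without any 1 mouse. DESeq2 called 12 genes higher and 7 lower over all genes, and edgeR called between 0 and 58 higher without 1 mouse, the 58 without Cre-positive 2. Without 1 mouse, the number of members whose groups did not overlap ran from 1 to 19 on the higher side (19 without Cre-positive 1, with 21.8% of all tested genes) and from 2 to 30 on the lower side (30 without Cre-positive 2, with 29.2% of all tested genes), and the median log2 fold change from -0.99 to 0.37. Scaling on 10 epithelial genes moved the median of all genes by -0.33 and left 0 members apart on the higher side (1.03% of all tested genes) and 6 on the lower side (32.4%). Of 30 members followed through each alternative, Agpat3, Mgll, Apobec1, Scarb1 and Vldlr kept their direction in every fit that gave a value. The groups of Mgll, Apobec1 and Scarb1 did not overlap, so leaving out a mouse could hardly have turned their sign. Scarb1 did not pass the filter without Cre-negative 1 or 3 and under the stricter filter, and Fabp1 has no value without Cre-positive 2. Each member that was not followed changed sign with some mouse left out. Among the 30 followed, log2 fold changes changed sign with a mouse left out for 24, and ran over these fits as follows. The range was Slc27a4 -1.01 to 0.23, Fabp2 -1.64 to 0.33, Dgat1 -1.47 to 0.43, Agpat2 -0.46 to 0.24, Cideb -0.99 to 0.19, Mttp -1.22 to 0.31, Apoa1 -0.99 to 0.58 and Apoa4 -2.90 to 0.65. It was Apoc2 -4.13 to 0.47, Apoc3 -3.97 to 0.81, Npc1l1 -1.28 to 0.67, Abcg5 -0.91 to 0.42, Abcg8 -1.11 to 0.33, Abca1 -1.21 to 0.71, Enpp7 -5.20 to 0.995 and Acsl5 -0.50 to 0.47. It was Plin3 -0.063 to 0.36, Pnpla2 -0.32 to 0.39, Apob -0.48 to 0.68, Pla2g12b -0.28 to 0.78, Naaladl1 -0.11 to 0.46, Lpin2 -0.51 to 0.014, Fabp1 -1.93 to 0.58 and Fitm2 -0.64 to 0.12. Signs also differed from the reported fit in these cases. With RLE scaling the value was Enpp7 0.0030. With scaling on epithelial genes the value was Acsl5 -0.33, Plin3 -0.22, Pnpla2 -0.31, Apob -0.20, Sar1b -0.039, Pla2g12b -0.031, Naaladl1 -0.19. With totals without mitochondrial genes the value was Enpp7 0.0042. With no filter the value was Apoa1 0.0045, Npc1l1 0.0091, Enpp7 0.018. With a smooth muscle covariate the value was Agpat2 0.12, Lpin2 0.15, Apoa1 0.0060, Npc1l1 0.013. With an enterocyte covariate the value was Apoa1 0.062, Abca1 0.21. With the Gata4 and Slc10a2 covariate, chosen after seeing the data, the value was Mttp 0.068, Apoa1 0.21, Apoa4 0.35, Apoc3 0.26, Npc1l1 0.13, Abcg5 0.093, Abcg8 0.011, Abca1 0.60. With DESeq2 the value was Enpp7 0.0024. With limma-voom the value was Acsl5 -0.014. The cause of these changes was not tested. No paired analysis was possible because the labels give each mouse its own number and share none between the groups. Depth of 4681119 to 6618204 counts limits Scarb1, Mgll and Fitm2 most, and 2 mice against 3 limit every comparison.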
